A study of Mus musculus with 6 samples.

Results

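The genes described are 29 that build the synaptic vesicle and release its content, taken from a list of symbols. They include synapsins and other vesicle membrane proteins, vesicular glutamate transporters, and synaptotagmins with related proteins. The others are fusion proteins with their helpers and proteins of the active zone. The 29 genes were matched to 80 probe sets annotated to 1 of these symbols alone, of 45037 on the array. Each gene is represented by its brightest probe set, by the mean of log2 intensity over all arrays, and its other probe sets serve as a check. All 29 genes had a probe set, of 18193 genes with one of their own. Of these 29, 28 reached a mean intensity of 50 and were tested, and Sv2c did not.

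The samples were ribosome-bound RNA from the cortex of S100a10 bacTRAP mice, line ES691, whose transgene tags ribosomes in cells that use the S100a10 control region. All 6 samples came from this line, backcrossed from FVB onto C57BL/6 for 3 to 5 generations. In the fluoxetine group (3 arrays) mice received fluoxetine at 0.167 mg/ml in 1% saccharine, and in the vehicle group (3 arrays) 1% saccharine without it, over 15 to 18 days in both. Fluoxetine blocks serotonin reuptake. The samples are labelled biological replicates. The sources used here do not give the age of the mice or how many made up a sample, and the p-values measure only the spread among these 6 samples. The submitters state that the transgene also marks some non-neuronal cells and advise a selection of probe sets from their paper, which was not used here. In such bulk samples, fewer cells of a type and less RNA per cell cannot be told apart.

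A nerve terminal stores transmitter in small vesicles. A proton pump and vesicular transporters fill them, synapsins tether them in reserve, and proteins of the active zone dock and prime them at the membrane. Fusion is driven by the SNARE proteins, of which one sits on the vesicle (Vamp) and others on the plasma membrane (Stx1a, Snap25). Synaptotagmins sense the calcium that enters with the action potential and trigger fusion, and the ATPase Nsf then takes the spent complexes apart. Pyramidal neurons of the cortex release glutamate.

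The arrays had median intensities between 47.3 and 48.6 over all probe sets and pairwise correlations of 0.993 to 0.997 across probe sets. Fluoxetine 1 held the highest value for 3137 of 12248 genes tested and vehicle 2 for 3828 (31.3%), and fluoxetine 2 held the lowest for 3950. Values below are log2 intensity on arrays 1, 2 and 3 of each group, in this order. S100a10, the driver gene, measured 15.09, 15.17 and 14.98 with fluoxetine and 15.07, 15.22 and 15.17 with vehicle. Of 10 neuronal markers all were above the filter, with summed intensities of 71010 to 87630 with fluoxetine and 79630 to 88300 with vehicle, and among them Rbfox3 measured 14.63 to 15.02 in log2. Layer 5 markers such as Fezf2 (11.07 to 11.36) and inhibitory neuron markers such as Gad1 (13.65 to 14.05) were present as well. Of 11 astrocyte markers, 7 were highest on fluoxetine 1, and their summed intensity ranged from 50190 to 61360 with fluoxetine and from 49760 to 55690 with vehicle. Of 8 oligodendrocyte markers above the filter, 5 were lowest on fluoxetine 2. Their summed intensity was 14190 there, 22860 and 22550 on fluoxetine 1 and 3, and 21390 to 23020 with vehicle.

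The comparison of fluoxetine with vehicle asks whether prolonged treatment changes the translated RNA of these cells. None of the 28 release machinery genes tested passed limma's moderated test with Benjamini-Hochberg adjustment over 22326 probe sets at 0.05 (smallest adjusted p = 0.999), against 0% of all probe sets. At an unadjusted p under 0.05 there were again none of the 28, beside 326 of 12248 genes (2.66%). Leaving out 1 array moved this count off 0: Slc17a7, Rph3a and Unc13a were under 0.05 without fluoxetine 3, Syn2 and Doc2a without fluoxetine 2, and Rims2 without vehicle 1, and none passed the adjusted test. Over all probe sets 563 of 22326 were under 0.05 with all arrays. This count also moved, to 717 of 22317 without fluoxetine 3, 1207 of 22339 without fluoxetine 2 and 523 of 22331 without vehicle 1. The lowest and highest fluoxetine and vehicle values of 1 gene, Vamp2, did not overlap, while 1018 of all genes tested (8.31%) had groups that did not overlap. With fluoxetine 18 of the 28 were lower and 10 higher, a share near that of all genes, of which 68.5% were lower. The median difference was -0.05 in log2 against -0.06 for all genes, and the range ran from -0.47 (Unc13a) to 0.45 (Slc17a7). Putting the arrays on a common distribution or a common median moved the median of all genes by 0.06 in log2, after which 11 and 12 of the 28 were lower and their median was 0.0081 and 0.0096. Leaving out 1 array moved the median of the 28 between -0.11 (without fluoxetine 3) and 0.0099 (without fluoxetine 2), so its sign was not fixed.

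**Figure D1:**
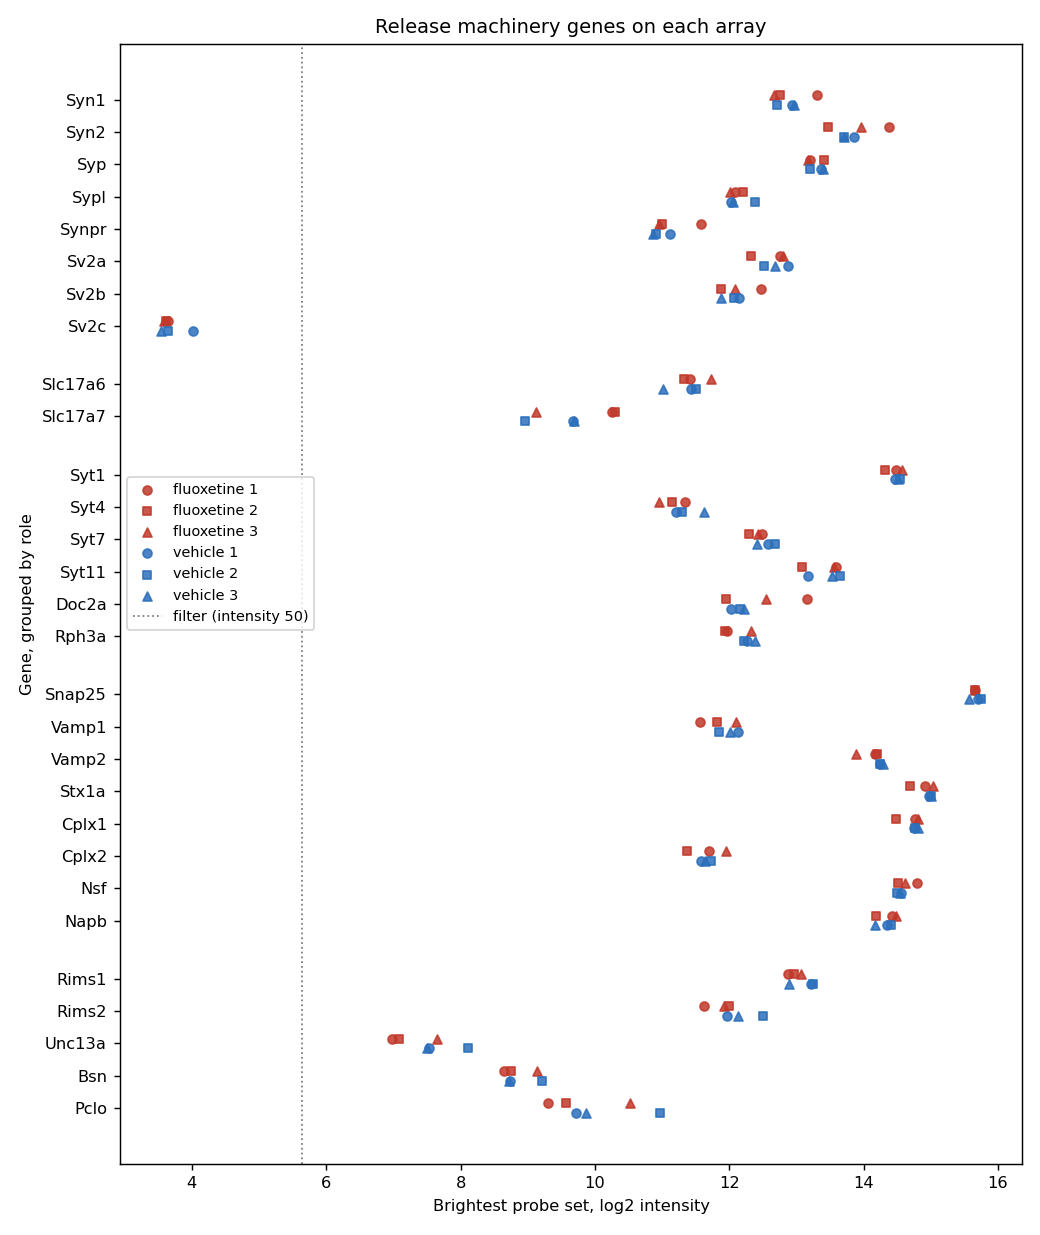
Log2 intensity (horizontal axis) of the brightest probe set of each of the 29 genes (vertical axis, grouped by role) on the 3 fluoxetine arrays (red) and the 3 vehicle arrays (blue), with the array number given by the marker and the filter at an intensity of 50 dotted. The red and blue ranges overlap for every tested gene but Vamp2, and Sv2c lies left of the filter at 3.54 to 4.02.

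Intensities of different probe sets depend on their probes, so levels are given per gene and are not ranked against each other. Synapsins coat the vesicle and bind it to the actin network. Syn1 measured 13.30, 12.76 and 12.66 with fluoxetine and 12.93, 12.71 and 12.96 with vehicle (log2 intensity), a difference of 0.04 ± 0.19 (SE). Syn2 measured 14.37, 13.47 and 13.96 with fluoxetine and 13.85, 13.71 and 13.71 with vehicle, a difference of 0.18 ± 0.22. Both genes were highest on fluoxetine 1, the other fluoxetine arrays lay on either side of the vehicle values for Syn2, and the groups overlapped. Without fluoxetine 1 the differences were -0.16 for Syn1 and -0.04 for Syn2.

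All 5 tested probe sets of Syn2 were highest on fluoxetine 1. The 4 others differed by 0.13 to 0.76 in log2. In 1 of them, which read 10.51, 9.70 and 9.85 against 9.53, 9.69 and 9.55, the groups did not overlap (unadjusted p = 0.0859, limma). The dimmest tested one read 8.72, 6.78 and 7.92 against 7.02, 7.06 and 7.05. Fluoxetine 1 and 3 stood above the vehicle arrays there and fluoxetine 2 below. The astrocyte filament gene Gfap read 12.13, 4.49 and 9.02 against 4.70, 5.24 and 5.67, with vehicle values near or below the filter (5.64 in log2). It is 1 of 11 astrocyte markers, of which 7 were highest on fluoxetine 1 and 5 lowest on fluoxetine 2. Another, Gjb6, was highest on fluoxetine 2 (13.18). The part of these markers in the Syn2 values was not tested. In the RefSeq table of assembly GRCm38.p6 the gene Timp4, an inhibitor of matrix proteases, overlaps the span of Syn2. Timp4 was looked up after the Syn2 values were seen and read 9.70, 8.77 and 8.97 against 8.55, 8.95 and 8.58. The sources used here do not say which strand the probe sets read.

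The stretches of 250 bases before the start of Syn1 (chrX:20920919-20921168, minus strand) and of the first of the 2 starts of Syn2 (chr6:115134652-115134901, plus strand) are shown because these paralogs shared their high array. They are from RefSeq, build GRCm38.p6, written 5′ to 3′ along the gene, and capitals mark matches on either strand to 4 motifs: the GC box GGGCGG, the cyclic AMP response element TGACGTCA, and 2 forms of the Egr factor site, GCGGGGGCG and GCGTGGGCG. The Syn1 stretch held 1 cyclic AMP response element and no GC box. The Syn2 stretch held 2 GC boxes and 1 Egr site, and the Egr site overlaps the first GC box.
Syn1: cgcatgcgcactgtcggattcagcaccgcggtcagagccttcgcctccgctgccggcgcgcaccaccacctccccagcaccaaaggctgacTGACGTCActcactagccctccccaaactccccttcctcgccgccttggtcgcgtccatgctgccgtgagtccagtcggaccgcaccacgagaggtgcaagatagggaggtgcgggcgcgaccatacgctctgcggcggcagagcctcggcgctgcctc
Syn2: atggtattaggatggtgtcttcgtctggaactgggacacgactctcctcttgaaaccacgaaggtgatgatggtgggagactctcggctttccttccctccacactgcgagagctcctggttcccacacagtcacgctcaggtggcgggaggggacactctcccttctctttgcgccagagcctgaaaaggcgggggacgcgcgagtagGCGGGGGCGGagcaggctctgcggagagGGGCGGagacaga

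Of the 29 genes, 23 matched the RefSeq promoter table by symbol, with 33 starts. The GC box was in the stretch before at least 1 start of 17 of these 23 (73.9%) and of 35.4% of the 27025 genes in the table, which include non-coding genes. By start, it was in 18 of 33 stretches against 32.7% of all stretches. The cyclic AMP response element was in that of Syn1 alone, beside 1.77% of all genes. The Egr site was in that of Syn2 in its G form, beside 2.93% of all genes, and in that of Unc13a in its T form, beside 0.622%. A match describes the letters and is not evidence of binding.

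Syp, synaptophysin, is an abundant protein of the vesicle membrane. It measured 13.20, 13.41 and 13.18 with fluoxetine and 13.36, 13.19 and 13.40 with vehicle, a difference of -0.06 ± 0.12 (SE, log2). Its relative Sypl, which is also made outside neurons, measured 12.08, 12.20 and 12.01 against 12.03, 12.39 and 12.06, a difference of -0.06 ± 0.14. The ranges of both genes lay over each other. Synpr, synaptoporin, measured 11.58, 11.01 and 10.95 against 11.11, 10.91 and 10.86, and its difference of 0.21 ± 0.19 was 0.015 without fluoxetine 1. Synpr too was highest on fluoxetine 1, and its other fluoxetine values lay within the vehicle range.

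The Sv2 genes encode vesicle glycoproteins, and Sv2a is the binding site of the antiepileptic levetiracetam. Sv2a measured 12.76, 12.33 and 12.80 with fluoxetine and 12.87, 12.51 and 12.68 with vehicle, a difference of -0.06 ± 0.17 (SE, log2). Sv2b measured 12.47, 11.88 and 12.08 against 12.14, 12.07 and 11.87, a difference of 0.11 ± 0.17, and its other probe set differed by 0.19. Sv2b was another gene highest on fluoxetine 1, with a difference of -0.05 without it. Sv2c read 3.64, 3.62 and 3.59 against 4.02, 3.65 and 3.54, below the filter, and was not tested. Of the 7 tested vesicle membrane genes, 4 were higher and 3 lower with fluoxetine, 7 and 6 were higher after the scalings to a common distribution and a common median, and without fluoxetine 1 only Synpr was higher.

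The glutamate transporters that fill the vesicle are encoded by Slc17a7 (VGLUT1), typical of cortical pyramidal neurons, and Slc17a6 (VGLUT2), typical of thalamus and brainstem. Slc17a7 measured 10.25, 10.30 and 9.13 with fluoxetine and 9.68, 8.95 and 9.68 with vehicle, a difference of 0.45 ± 0.35 (SE, log2) with a 95% interval of -0.38 to 1.28. Fluoxetine 1 and 2 stood above all vehicle arrays and fluoxetine 3 below 2 of them. The difference ranged from 0.21 without vehicle 2 to 0.84 without fluoxetine 3. Slc17a6 measured 11.41, 11.33 and 11.72 against 11.43, 11.50 and 11.02, a difference of 0.18 ± 0.17, and without vehicle 3 it was 0.03. Neither gene passed the test.

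Synaptotagmins are vesicle proteins whose C2 domains bind calcium or membrane. Syt1, the fast sensor of cortical synapses, measured 14.49, 14.32 and 14.58 with fluoxetine and 14.47, 14.54 and 14.52 with vehicle, a difference of -0.05 ± 0.11 (SE, log2). Syt7, a sensor of slower release, measured 12.49, 12.29 and 12.42 against 12.57, 12.69 and 12.40, a difference of -0.15 ± 0.13. The values of both groups of Syt1 and Syt7 overlapped. Of the 2 other tested probe sets of Syt7, the brighter one read 11.89, 11.77 and 12.08 against 12.22, 12.23 and 12.20 and its groups did not overlap (difference -0.30, unadjusted p = 0.0406, limma), and the dimmer one differed by -0.14. This probe set did not pass the adjusted test either.

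Syt4 and Syt11 are synaptotagmins that do not bind calcium in the usual way. Syt4 measured 11.34, 11.15 and 10.96 with fluoxetine and 11.20, 11.29 and 11.62 with vehicle, a difference of -0.22 ± 0.16 (SE, log2), and its other probe set differed by -0.31. Syt11 measured 13.58, 13.09 and 13.56 against 13.17, 13.65 and 13.53, a difference of -0.04 ± 0.19. Of the 4 other probe sets of Syt11, 3 had the opposite sign (up to 0.06).

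Doc2a and Rph3a are soluble C2 domain proteins of the terminal, Doc2a a calcium sensor and Rph3a a partner of the GTPase Rab3a. Doc2a measured 13.15, 11.95 and 12.55 with fluoxetine and 12.02, 12.15 and 12.21 with vehicle, a difference of 0.42 ± 0.28 (SE, log2). It was high on fluoxetine 1 and 3 and lowest on fluoxetine 2, as Syn2 was, and its difference ranged from 0.12 without fluoxetine 1 to 0.72 without fluoxetine 2. The 1 probe set of Doc2a has no other to check it, and the RefSeq table places the gene Ino80e over part of its span. Rph3a measured 11.96, 11.93 and 12.33 against 12.26, 12.21 and 12.38, a difference of -0.21 ± 0.14, and its other probe set differed by -0.02. Of the 6 genes made up of these synaptotagmins, Doc2a and Rph3a, 5 were lower, and 3 after either scaling. Their median was -0.10 before and -0.03 and -0.04 after.

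The fusion and recycling genes had the smallest median spread within groups of the 5 roles, 0.125 (SD, log2). Their median level was 14.46 in log2, against 12.41 over the 28 genes. The proton pump subunits, with a median level of 14.51, had a median spread of 0.105. Level and spread did not go together in every list. Other synaptotagmins and C2 proteins had a median level of 8.55 and a spread of 0.165. The vesicle membrane genes had 12.66 and 0.233. Snap25, a SNARE protein of the plasma membrane, measured 15.65, 15.66 and 15.66 with fluoxetine and 15.71, 15.75 and 15.57 with vehicle, a difference of -0.02 ± 0.11 (SE, log2) and a 95% interval of -0.27 to 0.23. Stx1a, its membrane partner, measured 14.91, 14.69 and 15.03 against 14.97, 15.01 and 15.01, a difference of -0.12 ± 0.12, and -0.23 in its other probe set. Fluoxetine 2 was the lowest array for Stx1a, and without it the difference was -0.028.

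Vamp2, the vesicle SNARE of most cortical synapses, measured 14.17, 14.19 and 13.89 with fluoxetine and 14.24, 14.24 and 14.29 with vehicle, a difference of -0.17 ± 0.12 (SE, log2, unadjusted p = 0.21, limma). All fluoxetine values were below all vehicle values, by a small margin, and without fluoxetine 3 the difference was -0.07. The other probe set of Vamp2 read 10.10, 10.09 and 9.66 against 10.02, 10.04 and 10.25, and there the groups overlapped. Vamp1, which is more common in spinal cord and brainstem, measured 11.56, 11.81 and 12.10 against 12.14, 11.84 and 12.01, a difference of -0.17 ± 0.17 that was -0.041 without fluoxetine 1 and -0.31 without fluoxetine 3.

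Complexins clamp and assist the assembled SNARE complex. Cplx1 measured 14.76, 14.48 and 14.81 with fluoxetine and 14.74, 14.76 and 14.81 with vehicle, a difference of -0.09 ± 0.13 (SE, log2). Cplx2 measured 11.70, 11.37 and 11.95 against 11.58, 11.72 and 11.64, a difference of 0.02 ± 0.16. The brightest probe set of Cplx2 is of a type that can match several transcripts, and its 2 others differed by -0.51 and 0.17, so that the sign of its difference depended on the probe set. In the one at -0.51, fluoxetine 2 read 8.63 and the other 5 arrays 10.31 to 10.81.

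Nsf measured 14.79, 14.51 and 14.62 with fluoxetine and 14.56, 14.50 and 14.55 with vehicle, a difference of 0.10 ± 0.12 (SE, log2). Napb, a SNAP adaptor that brings Nsf to the SNARE complex, measured 14.43, 14.18 and 14.48 against 14.34, 14.41 and 14.16, a difference of 0.06 ± 0.13. The other tested probe set of Nsf (-0.07) and the 4 of Napb (-0.08 to -0.01) had the opposite sign. Of the 8 genes of fusion and recycling, 5 were lower with a median of -0.05, and 4 were lower after either scaling.

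**Figure D2:**
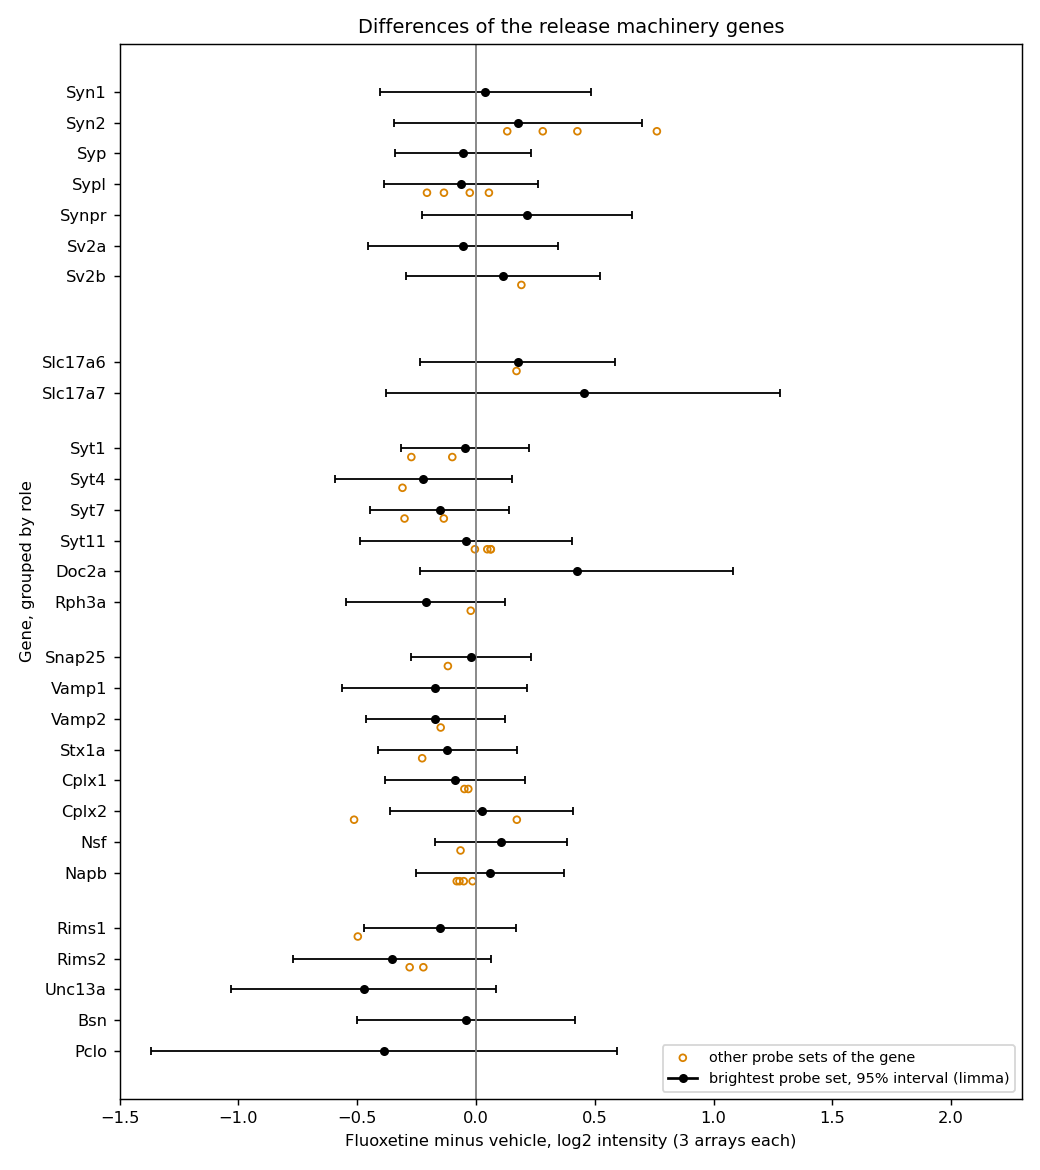
Fluoxetine minus vehicle in log2 intensity (horizontal axis, 3 arrays each) for the 28 tested genes (vertical axis, grouped by role), with the limma 95% confidence interval of the brightest probe set in black and the other tested probe sets of the gene as open circles. Every interval includes 0, and the open circles of Cplx2 lie on both sides of it, at -0.51 and 0.17.

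The active zone genes shared their lowest and their highest array. Rims1 and Rims2 encode scaffolds that tie vesicles to calcium channels, Unc13a the priming factor Munc13-1, and Bsn and Pclo the giant scaffolds bassoon and piccolo. All 5 were lowest on fluoxetine 1 and highest on vehicle 2, and 991 of 12248 genes tested (8.09%) shared that pair of extremes. All 5 were lower with fluoxetine, by a median of -0.355 in log2, and none passed the test. After the scalings to a common distribution and a common median 4 of 5 were lower, with medians of -0.27 and -0.295. With the mean of a gene's probe sets Bsn fell below the filter, and the other 4 were all lower with a median of -0.26.

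Rims1 measured 12.88, 12.96 and 13.07 with fluoxetine and 13.22, 13.24 and 12.89 with vehicle, a difference of -0.15 ± 0.14 (SE, log2). Its other probe set read 11.45, 11.55 and 11.68 against 12.38, 12.06 and 11.72, with no overlap between groups and a difference of -0.50 (unadjusted p = 0.0271, limma). Rims2 measured 11.62, 11.99 and 11.92 against 11.96, 12.50 and 12.12, a difference of -0.355 ± 0.18 (unadjusted p = 0.0837, limma). Its 2 other tested probe sets differed by -0.28 and -0.22, and in the one at -0.28 the groups did not overlap. By their brightest probe set, 8.31% of all genes tested had groups that did not overlap. In all 5 tested probe sets of the Rims genes the fluoxetine mean was the lower.

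Unc13a measured 6.98, 7.09 and 7.66 with fluoxetine and 7.53, 8.11 and 7.50 with vehicle, a difference of -0.47 ± 0.24 (SE, log2, unadjusted p = 0.0846, limma) with a 95% interval of -1.03 to 0.08. Its difference ranged from -0.28 without vehicle 2 to -0.68 without fluoxetine 3. Its vehicle mean corresponds to an intensity of 210.2. Bsn measured 8.64, 8.75 and 9.14 against 8.73, 9.22 and 8.72, a difference of -0.04 ± 0.20. Pclo measured 9.30, 9.57 and 10.52 against 9.72, 10.97 and 9.86, a difference of -0.39 ± 0.42. Pclo had the widest interval of the 28 genes, -1.37 to 0.59, and the arrays of each group spread over more than 1 in log2.

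Without fluoxetine 1 the median of the 5 was -0.14, and without vehicle 2 it was -0.09. Without both, an alternative chosen after the values were seen, it was -0.04, with 3 of 5 lower, Bsn at 0.22 and Pclo at 0.25. Of 8 RNAs that stay in the nucleus or code for no protein, 6 were above the filter. Their summed intensity was 884.5 to 1549 with fluoxetine and 964.8 to 2020 with vehicle. Their median deviation from the mean of the other arrays was -0.39 on fluoxetine 1 and 0.36 on vehicle 2, where the active zone genes stood at -0.48 and 0.58. On fluoxetine 2, fluoxetine 3 and vehicle 1 both lists had opposite signs, with 0.18, -0.066 and 0.33 for the nuclear or non-coding RNAs and -0.14, 0.21 and -0.065 for the active zone genes, and on vehicle 3 they stood at -0.14 and -0.15. Of these 6 RNAs, 0 were lowest on fluoxetine 1 and highest on vehicle 2, against 2 of 10 neuronal markers (20%). The part of these RNAs and markers in the active zone values was not tested. Of 23 other tested active zone genes, 13 were lowest on fluoxetine 2 and 7 on fluoxetine 1, 12 were highest on vehicle 2, and 6 (26.1%) were lowest on fluoxetine 1 and highest on vehicle 2.

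The stretches of 250 bases before the starts of Rims1 (chr1:22806159-22806408, minus strand) and Unc13a (chr8:71671758-71672007, minus strand) are given with the same source and the same meaning of capitals. They are examples of the active zone genes, which all shared their lowest and their highest array. Each held 2 GC boxes, and that of Unc13a also held 1 Egr site of the T form, read from the opposite strand and overlapping a GC box. Pclo also had a GC box before at least 1 start, Bsn had none of the motifs, and Rims2 was not in the promoter table.
Rims1: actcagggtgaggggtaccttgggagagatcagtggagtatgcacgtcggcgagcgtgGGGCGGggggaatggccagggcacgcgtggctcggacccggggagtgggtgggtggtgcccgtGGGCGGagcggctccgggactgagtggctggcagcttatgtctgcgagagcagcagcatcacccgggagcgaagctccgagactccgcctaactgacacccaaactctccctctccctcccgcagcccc
Unc13a: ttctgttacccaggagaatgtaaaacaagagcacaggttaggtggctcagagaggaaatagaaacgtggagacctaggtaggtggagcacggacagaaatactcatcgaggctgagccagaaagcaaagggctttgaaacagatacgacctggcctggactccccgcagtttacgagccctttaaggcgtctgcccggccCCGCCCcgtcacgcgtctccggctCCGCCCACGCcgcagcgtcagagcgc

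**Figure D3:**
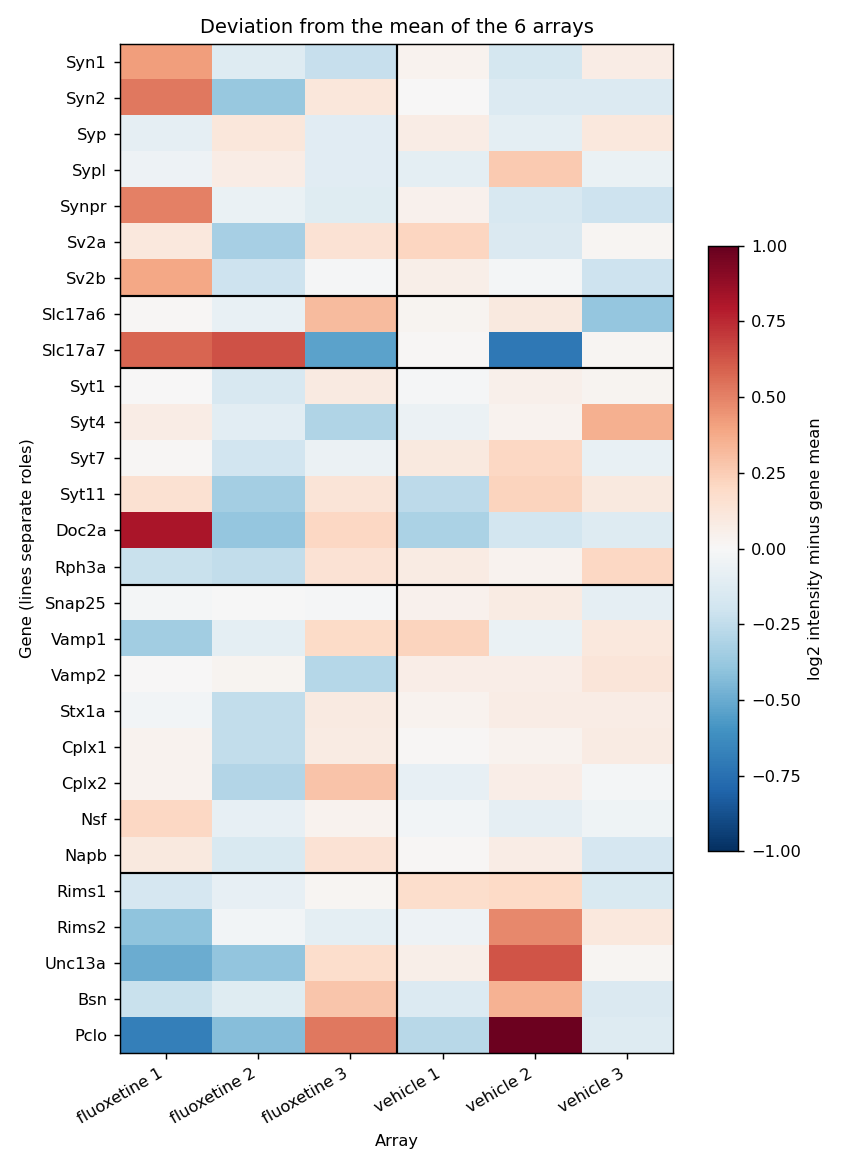
Deviation of the log2 intensity of the 28 tested genes (rows, with lines between roles) from the gene's mean over the 6 arrays (columns, fluoxetine left and vehicle right of the line), red above and blue below the mean. Fluoxetine 1 is red for Syn1, Syn2, Synpr, Sv2b and Doc2a and blue for all 5 active zone genes, while vehicle 2 is red for those 5.

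Other genes of the same pathway, on lists chosen by function, gave no call in either direction. Of 23 other active zone genes 19 were lower (median -0.11 in log2), with Apba2, a Munc18-binding adaptor, at -0.47 ± 0.20 (SE), the liprin gene Ppfia4 at -0.25 ± 0.12 and Lin7b, a PDZ scaffold, at -0.25 ± 0.13. Of 32 other SNARE proteins and regulators 26 were lower (median -0.04), with the syntaxin Stx4a at -0.19 ± 0.10, while the syntaxin Stx3 was at 0.62 ± 0.19 and Cplx3 at 0.41 ± 0.25. Stx3 had the smallest p of these lists (unadjusted p = 0.0133, limma), and its groups did not overlap. Of 14 other synaptotagmins and C2 proteins 9 were lower (median -0.05), with Sytl2 at -0.28 ± 0.14, Syt16 at -0.18 ± 0.11 and Esyt2 at -0.19 ± 0.12.

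Of 15 other vesicle membrane proteins and transporters 7 were lower, with the third synapsin gene Syn3 at 0.47 ± 0.18 (SE, log2), Rab3d at -0.44 ± 0.20 and the GABA transporter gene of vesicles Slc32a1 at -0.14 ± 0.15. The 15 subunits of the vesicle proton pump lay between -0.10 (Atp6v0b) and 0.10, with Atp6v1f at -0.09 ± 0.11 and Atp6v1e1 at 0.08 ± 0.12. All 15 had 95% intervals within 0.5 either way. Of 27 endocytosis genes 15 were lower (median -0.01), with the endophilin gene Sh3gl3 at -0.25 ± 0.12, Snap91, a clathrin adaptor, at 0.21 ± 0.13 and Epn1 at 0.13 ± 0.11. These counts stand beside the 68.5% of all genes that were lower.

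Related genes were also set against each other within each array, which cancels any shift that the array gives both. For 10 pairs the difference between groups was tested with an exact two-sided permutation test over the 6 arrays, whose smallest possible p is 0.1. All 10 overlapped between groups, with p between 0.3 and 1 (0.75 or more after Benjamini-Hochberg over the pairs). Bsn minus Pclo was higher with fluoxetine by 0.34 in log2 (-0.95 ± 0.38 against -1.30 ± 0.40, SD, n = 3 each, exact p = 0.4). Slc17a6 minus Slc17a7 measured 1.17, 1.03 and 2.59 with fluoxetine and 1.75, 2.54 and 1.33 with vehicle, a difference of -0.28. This ratio varied more within groups than between them.

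Rims1 minus Rims2 differed by 0.20, Syt1 minus Syt4 by 0.18, Sv2a minus Sv2b by -0.17 and Syn1 minus Syn2 by -0.14 in log2. Syp minus Synpr measured 1.63, 2.40 and 2.23 against 2.25, 2.28 and 2.54, a difference of -0.27 that was -0.04 without fluoxetine 1. Cplx1 minus Cplx2 differed by -0.11 and Vamp1 minus Vamp2 by 0.00 (-2.26 in both groups). Sv2a minus Sv2c differed by 0.06, but Sv2c was below the filter. Unequal response of any of these pairs was not detectable with 3 arrays a group.

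**Figure D4:**
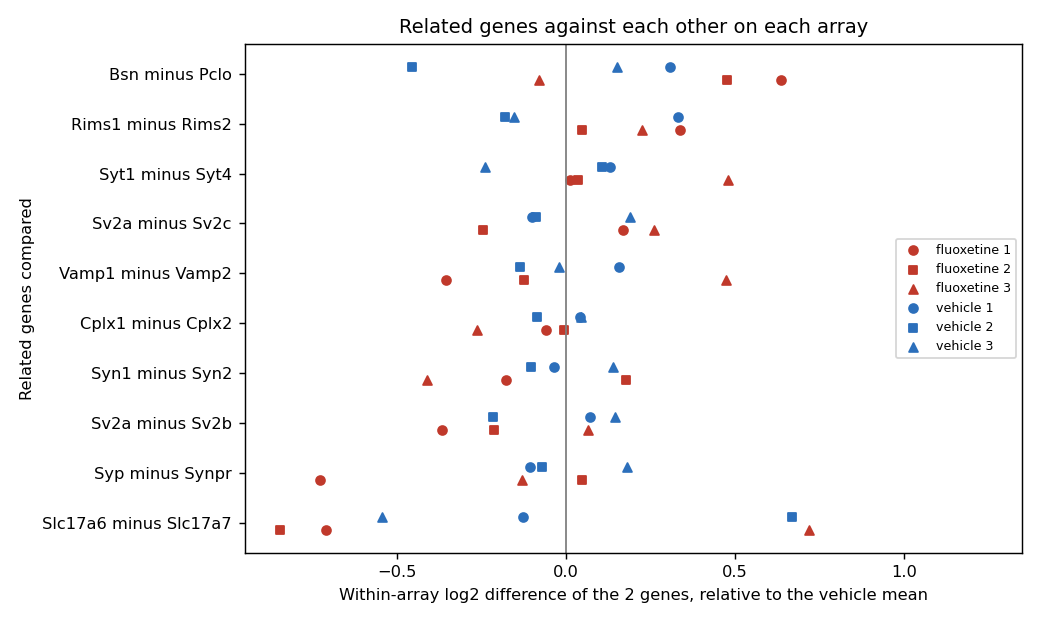
Log2 difference between related genes on the same array (horizontal axis), relative to the vehicle mean of that pair, for 10 pairs (vertical axis) on 3 fluoxetine arrays (red) and 3 vehicle arrays (blue). Red and blue points overlap in all 10 pairs, and the pair Slc17a6 minus Slc17a7 spreads the most.

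The arrays set limits that differ by gene. The 95% interval of the difference lay within 0.5 in log2 either way for 15 of the 28 release machinery genes and within 1 for 24, beside 6800 and 11622 of the 12248 genes tested. Within 0.5 were 7 of 8 fusion and recycling genes, 4 of 7 vesicle membrane genes and 3 of 6 synaptotagmin and related genes. Of the active zone genes it was 1 of 5, and of the transporters neither. The median spread within groups was 0.215 (SD, log2) over the 28 genes and 0.187 over all genes. In 19 of the 28 the fluoxetine arrays spread more than the vehicle arrays, as in 61.9% of all genes.

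Of the 18 genes with a further tested probe set, 13 had no further tested probe set of the opposite sign. The other 5 were Sypl, Syt11, Cplx2, Nsf and Napb, whose brightest probe sets differed by at most 0.105 in log2 either way. In 11 of the 29 genes no further probe set reached the filter, among them Doc2a, Slc17a7 and Unc13a, 3 of those with the largest differences.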

How the data were processed

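Ribosome-bound RNA of 6 samples (15 ng each) was amplified in a 2-cycle protocol and hybridised to single-colour Affymetrix arrays, per the labels. The authors deposited linear intensity values, made with GCRMA per the submitters' processing notes, whose version the sources used here do not give. GCRMA compresses low values, and the deposited values still differed in level among tested genes: 68.5% were lower with fluoxetine, and 50.7% and 50.6% after quantile normalization and a common median. Log2 was taken. A platform annotation gave 34945 probe sets 1 symbol, 932 several and 9160 none, and 64 control probe sets were left out. Probe sets with a geometric mean of at least 50 (22326, 49.6%) were tested two-sided in limma 3.58.1 (R 4.3.3), without a block and with Benjamini-Hochberg adjustment at 0.05. The scripted fit was tested on simulated data.

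The members and all lists were chosen with earlier results of these data known. Named were the 29 members and, per related list, 3 genes by smallest unadjusted p. Alternatives were other filters, an offset of 16, quantile normalization, a common median, a replicate block, another variance estimate, other choices of probe set, and leaving out each array.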

Additional observations from a re-analysis of the deposited data

How the results depend on the processing

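No alternative called a probe set or a member: the count was 0 of all probe sets and 0 of the members under each of the 16 settings, and 319 (without vehicle 2) to 2631 (no filter) probe sets had an unadjusted p under 0.05, against 563. Of the members, 3 had one without fluoxetine 3 (717 of all probe sets), 2 without fluoxetine 2 (1207) and 1 without vehicle 1 (523). With the mean of a gene's probe sets 1 member (Syt4) had one, beside 327 of 10907 genes. Of 469 recomputed member differences, 41 had the sign turned, in 15 of the 29 genes, all of them differences that had not passed. Cplx2 turned to -0.51 without probe sets that can match several transcripts; there Cplx1 minus Cplx2 was 0.43.

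Quantile normalization left 11 members lower and turned Syp to 0.0073, Sypl to 0.0062, Sv2a to 0.020, Syt1 to 0.0088, Syt11 to 0.016, Snap25 to 0.0070, Bsn to 0.019 and Vamp1 minus Vamp2 to 0.021. With a common median Syp was at 0.0046, Sv2a at 0.0042, Syt1 at 0.015, Syt11 at 0.020, Snap25 at 0.039 and Bsn at 0.018. With the mean of a gene's probe sets Syp was at 0.015, Syt11 at 0.025, Cplx2 at -0.11 and Bsn, below the filter there, at 0.043. In that setting Vamp1 minus Vamp2 was at 0.13, Rims1 minus Rims2 at -0.13 and Cplx1 minus Cplx2 at 0.050. With an offset of 16, Sv2a minus Sv2c was at -2.26e-05. Without both fluoxetine 1 and vehicle 2, chosen after seeing the data, Bsn was at 0.22 and Pclo at 0.25. The causes were not tested.

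Leaving out 1 array at a time gave ranges of -0.16 to 0.16 for Syn1, -0.042 to 0.41 for Syn2, -0.13 to 0.052 for Sypl, -0.14 to 0.095 for Sv2a, -0.049 to 0.25 for Sv2b, -0.22 to 0.025 for Sv2c, -0.10 to 0.024 for Syt1, -0.18 to 0.12 for Syt11, -0.073 to 0.016 for Snap25, -0.15 to 0.013 for Cplx1, -0.12 to 0.18 for Cplx2, -0.014 to 0.15 for Napb, -0.19 to 0.12 for Bsn and -0.75 to 0.0072 for Pclo. Among members whose sign held, it gave -0.31 to -0.041 for Vamp1, -0.197 to -0.028 for Stx1a, -0.68 to -0.28 for Unc13a, 0.12 to 0.72 for Doc2a, 0.21 to 0.84 for Slc17a7, 0.027 to 0.27 for Slc17a6, 0.015 to 0.33 for Synpr, 0.028 to 0.17 for Nsf, -0.13 to -0.013 for Syp, -0.23 to -0.072 for Vamp2, -0.315 to -0.098 for Syt4, -0.23 to -0.088 for Syt7, -0.34 to -0.14 for Rph3a, -0.26 to -0.089 for Rims1 and -0.47 to -0.20 for Rims2. The ranges were -0.29 to 0.00083 for Syn1 minus Syn2, -0.24 to 0.18 for Vamp1 minus Vamp2, -0.038 to 0.22 for Sv2a minus Sv2c and -0.78 to 0.056 for Slc17a6 minus Slc17a7.

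Samples with the same replicate number did not deviate together (correlations of -0.253, -0.0275 and -0.502 across probe sets), so the numbers were not taken as pairs. With a replicate block 0 probe sets and 0 members were called, 350 probe sets had an unadjusted p under 0.05 instead of 563, and 18 members were lower as before. The signal of Sv2c, near the floor of the arrays, allows no statement on that gene, and 3 arrays a group limit every value.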

Other observations

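Some further probe sets of the release machinery genes varied far more between arrays than the brightest one did. The second probe set of Slc17a6, the VGLUT2 gene, read 7.64, 7.90 and 9.95 with fluoxetine and 9.83, 9.13 and 6.01 with vehicle (log2 intensity), while the brightest read 11.02 to 11.72. The group means differed by 0.17. The second probe set of Rph3a read 8.98, 10.40 and 9.81 against 9.27, 10.21 and 9.77, and the third of Syt1 7.87, 8.87 and 9.47 against 9.14, 9.12 and 8.76. The second of Nsf read 12.96, 13.35 and 13.86 against 13.77, 13.63 and 12.96. Fluoxetine 1 was the lowest or second lowest array in all 4, tied with vehicle 3 in Nsf. This was not so in other further probe sets that varied widely. In the dimmest tested one of Syn2 fluoxetine 1 was the highest array (8.72). In the second of Cplx2 fluoxetine 2 was the lowest (8.63), and fluoxetine 1 read 10.36. These probe sets were chosen after their values were seen.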
